A study of Mus musculus with 6 samples.

Results

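Sertoli cells are the somatic cells that line the seminiferous tubule and hold the developing germ cells, and transcripts of their marker genes were read here in germ cell fractions that should contain few of them. The 9 genes described are Sox9, Wt1, Clu, Cldn11, Gja1, Cst9, Ctsl, Inha and Amh, out of 19938 named genes on the array. They were chosen by name as Sertoli cell markers, with earlier results of these data known. Each had 1 transcript cluster that lists no other gene, and all 9 were among the 17925 genes tested. RNA came from C57BL/6 mice, either wild type (WT) or RNF8-KO, a knockout of the ubiquitin ligase gene Rnf8 (KO below). Pachytene spermatocytes (PS), in meiotic prophase, and round spermatids (RS), the haploid cells after meiosis, were obtained by gravity sedimentation with a stated enrichment above 95%. The design text gives 3 to 4 males and does not say whether this is per genotype or per preparation. There were 2 WT PS arrays, 2 KO PS arrays, 1 WT RS array and 1 KO RS array. Both RS arrays are numbered 2 in their titles, and RS arrays numbered 1 were not analysed here. The sources used here state neither the age of the males nor how the knockout allele was made. Whether replicate arrays hold separate cell preparations is not stated either, so p-values cover only the spread between these arrays, which may be technical.

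In the adult testis each Sertoli cell supports many germ cells, forms the blood-testis barrier with its neighbours through tight and gap junctions, and secretes carrier proteins, proteases and hormones. SOX9 and WT1 are transcription factors that establish and keep Sertoli identity. Claudin 11 (Cldn11) builds the tight junction strands of the barrier, and the connexin gene Gja1 encodes gap junction subunits. Clusterin (Clu), cathepsin L (Ctsl) and the cystatin-related Cst9 are secreted or lysosomal products. Inhibin alpha (Inha) and anti-Müllerian hormone (Amh) are hormone genes, and Amh is known for high expression in immature Sertoli cells and low expression after puberty. Clumps of Sertoli cytoplasm can stay attached to germ cells when tubules are dissociated, which is why these genes serve as a check of a germ cell fraction.

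RefSeq promoters of the GRCm38.p6 assembly were found for 5 of the 9 genes, and 4 are shown because these genes fell together between the cell types and their upstream windows hold a match to a factor family of Sertoli cells. The 250 bases before the transcript start were searched on both strands for 7 short motifs. ACAAAG and AACAAT are bound by SOX factors, AGATAA and TGATAA by the GATA family, CAAGGTCA by SF1, GGGGGCG resembles the site known for WT1, and TGACGTCA is the cyclic AMP response element. Capitals mark the matches, read 5′ to 3′ on the gene's own strand. The windows are chr2:148834897-148835146 (+ strand) for Cst9, chr3:31149670-31149919 (+ strand) for Cldn11, chr10:56377050-56377299 (+ strand) for Gja1 and chr13:64370521-64370770 (- strand) for Ctsl.
Cst9: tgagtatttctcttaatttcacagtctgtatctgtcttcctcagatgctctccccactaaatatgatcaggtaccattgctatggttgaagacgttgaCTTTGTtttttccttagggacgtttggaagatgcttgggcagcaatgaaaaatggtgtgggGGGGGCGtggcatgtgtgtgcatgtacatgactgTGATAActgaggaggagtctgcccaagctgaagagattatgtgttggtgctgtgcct
Cldn11: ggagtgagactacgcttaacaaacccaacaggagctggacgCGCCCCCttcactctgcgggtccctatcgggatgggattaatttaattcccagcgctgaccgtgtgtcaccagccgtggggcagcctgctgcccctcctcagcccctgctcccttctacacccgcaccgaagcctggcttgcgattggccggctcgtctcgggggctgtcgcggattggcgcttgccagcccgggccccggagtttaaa
Gja1: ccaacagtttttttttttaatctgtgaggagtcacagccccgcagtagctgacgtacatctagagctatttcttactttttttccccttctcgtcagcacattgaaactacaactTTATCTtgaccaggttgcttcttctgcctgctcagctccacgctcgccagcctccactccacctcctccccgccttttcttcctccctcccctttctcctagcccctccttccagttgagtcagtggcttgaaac
Ctsl: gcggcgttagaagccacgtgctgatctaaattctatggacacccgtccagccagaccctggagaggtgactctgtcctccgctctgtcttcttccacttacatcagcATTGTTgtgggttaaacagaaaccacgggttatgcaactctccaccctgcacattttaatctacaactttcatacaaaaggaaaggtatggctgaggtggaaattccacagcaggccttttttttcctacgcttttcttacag
Cst9 held ACAAAG on the other strand at 152 to 147 bases before the start, GGGGGCG at 91 to 85 and TGATAA at 57 to 52. Cldn11 held GGGGGCG on the other strand at 209 to 203. Gja1 held AGATAA on the other strand at 135 to 130, and Ctsl held AACAAT on the other strand at 143 to 138. The matches do not overlap each other. The window of Inha, which also fell, held none of the 7 motifs. Over all 32851 RefSeq promoters, ACAAAG occurs in 16.5%, AACAAT in 9.42%, AGATAA in 9.99%, TGATAA in 7.94%, GGGGGCG in 14.8%, CAAGGTCA in 1.33% and TGACGTCA in 1.55%. These shares are per motif. The share of promoters with any of the 7 motifs is larger and was not counted, so the number of windows with a match cannot be set against it. A match describes these letters only.

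The median intensity of an array lay between 197 and 218. The cluster of Rnf8, which also lists Gm28043, was at log2 8.51 and 8.86 in WT PS, 7.86 and 8.05 in KO PS, 7.78 in WT RS and 7.50 in KO RS. Both KO PS arrays were below both WT PS arrays, and no source used here places this cluster against the deleted exons. As a level for genes mostly not used by these cells, the 95th percentile of 1205 olfactory and vomeronasal receptor clusters was taken on each array, and it lay between log2 7.01 and 7.37.

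Signal of most Sertoli marker genes was above the receptor level in every fraction. Of the 9 genes, 8 lay above it on all 6 arrays, and Amh lay at or below it on all 6. The receptor level was below the median of all clusters on each array (log2 7.62 to 7.77), so most clusters exceed it. Of the lists described below, 23 of 27 Sertoli-associated, 13 of 19 peritubular and vessel and 13 of 16 spermatogonial markers also lay above it on all 6. Of 14 Leydig markers 8 did, and of 15 macrophage and blood markers 3. On the PS arrays the cluster means ran from log2 11.19 ± 0.22 (SD, n = 4) for Clu to 7.08 ± 0.09 (SD, n = 4) for Amh. These are levels of different clusters, whose probes differ, so their order is not an order of transcript abundance.

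**Figure D1:**
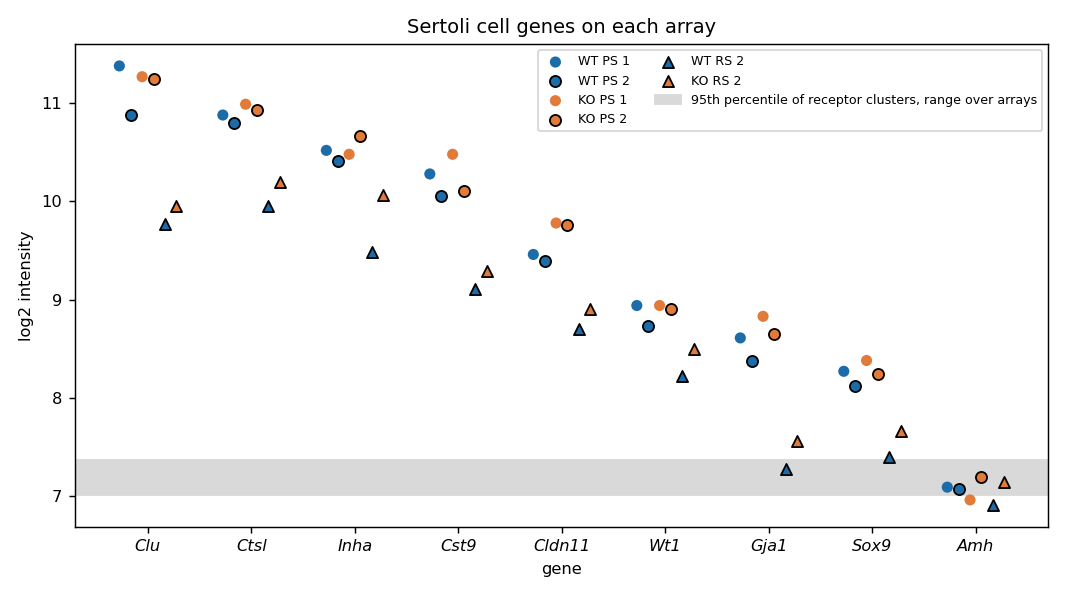
Log2 intensity of each of the 9 Sertoli cell genes (x axis, ordered by PS mean) on the 6 arrays, with circles for PS, triangles for RS, blue for WT, orange for KO and a black edge for arrays numbered 2. The grey band spans the receptor level over the arrays, 7.01 to 7.37. The RS triangles lie below the PS circles for 8 genes, and Amh lies in or under the band throughout.

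Of the transcription factor genes, Sox9 was at log2 8.27 and 8.12 on the WT PS arrays, 8.38 and 8.24 on the KO PS arrays, 7.40 in WT RS and 7.66 in KO RS. Wt1 was at 8.94 and 8.73 in WT PS, 8.94 and 8.90 in KO PS, 8.22 in WT RS and 8.50 in KO RS. For both genes each RS array lay below each PS array, as it did for 26.4% of tested genes. The KO RS value of both lay between the WT RS value and the PS values. The WT RS value of Sox9 was near the receptor level of that array, 7.16.

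Of the junction genes, Cldn11 was at log2 9.46 and 9.39 in WT PS, 9.78 and 9.76 in KO PS, 8.70 in WT RS and 8.90 in KO RS. Gja1 was at 8.61 and 8.38 in WT PS, 8.83 and 8.65 in KO PS, 7.27 in WT RS and 7.56 in KO RS. Both genes were highest on the KO PS arrays and lowest in WT RS, with no overlap between the 4 groups. Of tested genes, 26.4% had both RS arrays below all 4 PS arrays, and 14.9% had both KO PS arrays above both WT PS arrays. In WT RS the Gja1 value was close to the receptor level of that array, 7.16, so the size of its difference between cell types is limited by that level.

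Of the secreted and lysosomal products, Clu was at log2 11.38 and 10.88 in WT PS, 11.27 and 11.25 in KO PS, 9.77 in WT RS and 9.95 in KO RS. Cst9 was at 10.28 and 10.06 in WT PS, 10.48 and 10.11 in KO PS, 9.11 in WT RS and 9.29 in KO RS. Ctsl was at 10.88 and 10.80 in WT PS, 10.99 and 10.93 in KO PS, 9.95 in WT RS and 10.20 in KO RS. All 3 genes were lower in RS without overlap, as were 26.4% of tested genes. The spread between replicate arrays was widest for Clu in WT PS, at 0.50, and for Cst9 in KO PS, at 0.38.

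Of the hormone genes, Inha was at log2 10.52 and 10.41 in WT PS, 10.48 and 10.67 in KO PS, 9.48 in WT RS and 10.07 in KO RS. Inha had the largest gap of the 9 genes between the RS arrays. Amh was at 7.09 and 7.07 in WT PS, 6.96 and 7.19 in KO PS, 6.91 in WT RS and 7.14 in KO RS. The Amh values overlapped between the cell types and between the genotypes.

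Compared over both genotypes, 8 of the 9 Sertoli genes fell in RS at an adjusted p under 0.05 in limma, and Amh did not pass. Of all tested genes, 17.1% fell and 17.8% rose in the same comparison. The 9 genes were chosen with earlier results of these data known, so these shares are a setting and not a test of the list. Gap junction gene Gja1 fell by 1.20 on the log2 scale (SE 0.12, adjusted p = 0.000277, 2 RS against 4 PS arrays), or 2.30-fold. Clu fell by 1.34 (SE 0.15, adjusted p = 0.000418), or 2.53-fold, and Cst9 by 1.03 (SE 0.14), or 2.05-fold. Ctsl fell by 0.83, Cldn11 by 0.80, Inha by 0.75 and Sox9 by 0.72, each with an SE between 0.10 and 0.14. Wt1 fell least, by 0.52 (SE 0.11, adjusted p = 0.00893), or 1.43-fold. Amh was at -0.06, with a 95% interval from -0.33 to 0.22. The median of the 9 differences was -0.80, against -0.06 over all tested genes. Both RS arrays lay below all 4 PS arrays for 8 of the 9 genes and for 26.4% of tested genes. The count rests partly on the WT RS array: without it 5 of the 9 passed, as Sox9, Wt1 and Inha no longer did (adjusted p = 0.0576, 0.202 and 0.129). Without the KO RS array 7 passed, as Wt1 did not (adjusted p = 0.0598). In RNA from whole fractions, fewer cells that express a gene and less of its RNA per cell cannot be told apart, and from which cells of a fraction the signal came was not tested.

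**Figure D2:**
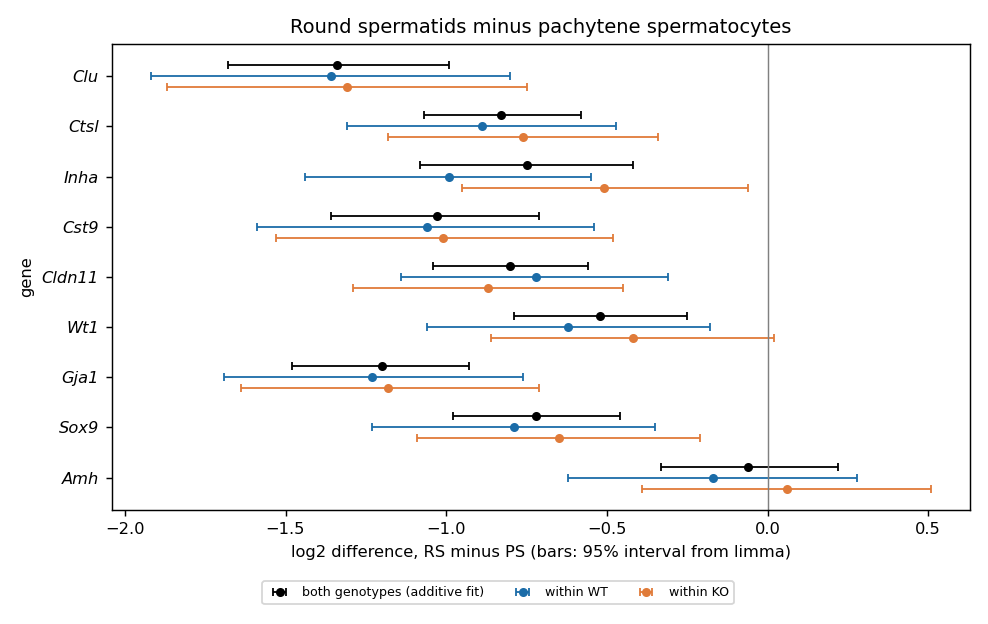
Log2 difference of RS minus PS (x axis) for each Sertoli gene (y axis), over both genotypes in black, within WT in blue and within KO in orange, with bars for the 95% interval from limma. The black intervals of 8 genes lie below 0, from Clu at -1.34 to Wt1 at -0.52, and that of Amh spans 0.

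Within WT alone, 7 of the 9 genes fell (8.45% of tested genes fell in limma at the same threshold), and within KO alone, 5 fell (7.18% of tested genes). Clu, Gja1, Cst9, Ctsl and Cldn11 passed in both genotypes. Inha fell by 0.99 in WT (SE 0.19, adjusted p = 0.0117) and was at -0.51 in KO (SE 0.19, adjusted p = 0.129). Sox9 fell by 0.79 in WT and was at -0.65 in KO, with adjusted p = 0.0242 and 0.0576. Wt1 passed in neither, at -0.62 in WT and -0.42 in KO. The difference between the genotypes was tested as an interaction in limma, and 0 of the 9 genes passed (0.0% of tested genes), with 0 of the 9 and 130 of all tested genes at an unadjusted p under 0.05. The widest interaction was that of Inha, at 0.49 with a 95% interval from -0.14 to 1.12. These fits rest on the spread of the PS pairs, and each lone RS array is assumed to vary like them. Leaving out the WT RS array in the comparison over both genotypes leaves the same contrast as within KO. Leaving out the KO RS array leaves that within WT, so these are not separate checks. Within WT, 0 of the 9 genes passed without WT PS array 1 and 2 without WT PS array 2. Within KO, 2 passed without WT PS array 1 and likewise without WT PS array 2.

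Rnf8 loss was not accompanied by a Sertoli gene that passed the test. In PS, limma called 0 of the 9 genes for KO against WT (0.0% of tested genes), with 1 of the 9 and 430 of all tested genes at an unadjusted p under 0.05. That gene was Cldn11, at 0.35 (SE 0.14, unadjusted p = 0.0476, n = 2 arrays per genotype), with a 95% interval that reached 0.69. The PS difference was positive for 8 of the 9 genes, with a median of 0.12 against 0.03 over all tested genes, and Amh was at -0.0017. Some other lists gave similar values, with 16 of 19 peritubular and vessel markers (median 0.10) and 13 of 16 spermatogonial markers (median 0.11) above WT. Pachytene and spermatid markers had 10 of 14 and 14 of 19 above WT, with medians of 0.08 and 0.09. Of 14 Leydig markers 6 were above WT (median -0.04), and of 15 macrophage and blood markers 9 were (median 0.01). Both KO PS arrays lay above both WT PS arrays for 3 of the 9, Cldn11, Gja1 and Ctsl, and for 14.9% of tested genes.

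Over both cell types, limma again called 0 of the 9 (0.0% of tested genes), with 2 of the 9 and 979 of all tested genes at an unadjusted p under 0.05. These were Cldn11 at 0.30 (SE 0.10, adjusted p = 0.846) and Gja1 at 0.26 (SE 0.11, adjusted p = 0.892). Their 95% intervals ran from 0.07 to 0.52 and from 0.0034 to 0.52. All 9 genes had a positive difference, with a median of 0.16 against 0.04 over all tested genes. The same sign was seen for 18 of 19 peritubular and vessel markers, with a median of 0.16, and for 15 of 16 spermatogonial markers, with a median of 0.14. Medians were lower for Leydig markers (8 of 14 positive, median 0.06) and macrophage and blood markers (10 of 15, 0.05). They were also lower for pachytene (10 of 14, 0.05) and spermatid markers (13 of 19, 0.03). For Cldn11, Gja1 and Ctsl each KO array lay above each WT array of its cell type, as it did for 10.9% of tested genes. The 95% intervals of the other 7 genes included 0 and reached between 0.34 for Amh and 0.58 for Inha, so a difference up to these bounds could not be told from none with these arrays.

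In RS, with 1 array per genotype and no replicate check, the KO array lay above the WT array for 9 of the 9 Sertoli genes and for 59.1% of tested genes. The difference was 0.60 for Inha (1.51-fold), and for the other 8 genes it lay between 0.18 for Clu and Cst9 and 0.30 for Gja1. Its median over the 9 genes was 0.25, against 0.05 over all tested genes. Some marker lists of other cells were also higher in KO RS. Above WT were 17 of 19 peritubular and vessel markers (median 0.25), 13 of 16 spermatogonial markers (median 0.23) and 10 of 14 Leydig markers (median 0.21). Macrophage and blood markers were above WT for 9 of 15, with a median of 0.01. Pachytene markers were above WT for 7 of 14 and spermatid markers for 5 of 19, with medians of -0.01 and -0.05. No Sertoli gene differed 2-fold, and 0.385% of tested genes did. The difference was larger than the gap between either pair of PS replicates for 7 of the 9 genes, and Clu and Cst9 were the exceptions. The share of all tested genes for which this holds was not counted, so the 7 cannot be set against it. Those gaps are from PS, and the spread between RS arrays of 1 genotype is not known. For Amh, which was not above the receptor level, it was 0.23, so a difference near the median of the 9 was also seen at that level. The median of the receptor clusters was 5.26 in WT RS and 5.32 in KO RS.

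**Figure D3:**
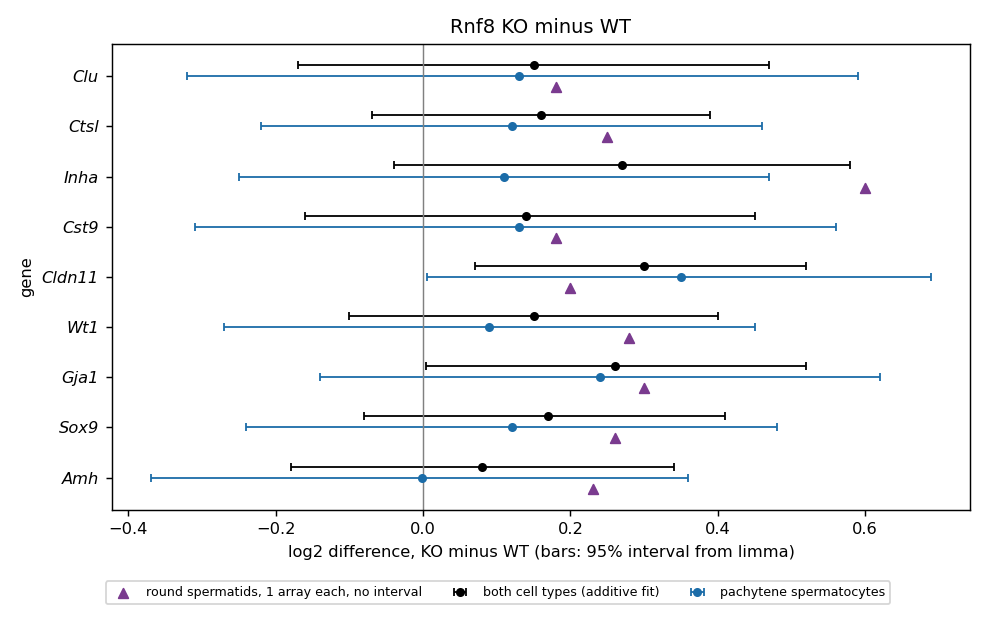
Log2 difference of KO minus WT (x axis) for each Sertoli gene (y axis), with black points for both cell types together, blue points for PS and purple triangles for the single pair of RS arrays, and bars for the 95% interval from limma. All triangles lie to the right of 0, between 0.18 and 0.60, and most intervals span 0, with Cldn11 at 0.30 over both cell types among the exceptions.

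The PS replicates themselves differed. WT PS array 2 was the lowest of the 4 PS arrays for 8 of the 9 Sertoli genes and for 21.7% of tested genes. Averaged over the 9 genes, it lay 0.16 below the PS mean (-0.16), while WT PS array 1 was at 0.02, KO PS array 1 at 0.09 and KO PS array 2 at 0.05. The PS differences between KO and WT moved with this array. Without it, Clu was at -0.11 and Wt1 at -0.0154 in KO against WT. Summed over the 9 genes, intensity was 9282 and 7939 in WT PS, 9646 and 9321 in KO PS, 4279 in WT RS and 5234 in KO RS, and the PS mean was 1.90 times the RS mean.

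Markers of other cells give the setting of these values. From a wider list of 30 Sertoli-associated genes, 27 were tested and the others were not analysed here. In RS 6 of the 27 fell, 2 rose and 19 did not pass, with a median of -0.29, where 17.1% of all tested genes fell, so the share that fell is near that of all genes. Prostaglandin D synthase (Ptgds) fell by 1.49 and the Amh receptor gene Amhr2 by 0.98. Zonula occludens 1 (Tjp1) rose by 0.50 and Dmrt1, also used by spermatogonia, by 0.36. In RS, KO lay above WT for 23 of these 27, with a median of 0.25, and over both cell types 0 passed for KO against WT. The ends of that comparison were Nr0b1 at 0.43 and Amhr2 at 0.38, and Ptgds at -0.19 and Cdh2 at -0.06. Summed intensity of this list was 13146 to 14809 in WT PS, 14449 to 15030 in KO PS, 10050 in WT RS and 11139 in KO RS.

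Of 11 tested genes of the tight, gap and adherens junctions, Cldn11 and Gja1 included, 5 fell and 3 rose in RS. Of all tested genes, 17.1% fell and 17.8% rose. N-cadherin (Cdh2) fell by 0.94, F11r by 0.87 and occludin (Ocln) by 0.47, though Ocln was at or below the receptor level on all 6 arrays. The junctional adhesion molecule genes Jam2 and Jam3 rose by 0.75 and 0.47, beside Tjp1. The junction genes therefore did not move in 1 direction.

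Leydig cells, which make testosterone between the tubules, were represented by 14 tested markers, of which 10 fell and 1 rose in RS, with a median of -1.06. On all 6 arrays 8 of the 14 lay above the receptor level and 1 at or below it. The steroidogenic gene Hsd3b6 fell by 3.12, Cyp17a1 fell by 2.64, and the lipoprotein receptor gene Scarb1 rose by 0.74. Within PS their pattern over arrays was another: KO PS array 1, the highest PS array for most Sertoli genes, was the lowest for 8 of 14 Leydig markers and for 1 of the 9 Sertoli genes (35.4% of tested genes). The mean of the Leydig markers on that array lay 0.18 below the PS mean (-0.18). In KO against WT over both cell types, Scarb1 and Klk1b27 were at 0.36 and 0.20, Hsd3b6 and Cyb5a at -0.43 and -0.40, and 0 of 14 passed. Summed intensity of the Leydig list was 15674 and 16048 in WT PS, 13803 and 15881 in KO PS, 8374 in WT RS and 8902 in KO RS. Bright clusters weigh most in these sums. Gramd1b, at log2 12.09 on each RS array, did not pass in RS against PS (-0.13), and Scarb1 rose. The sums therefore do not give the share of Leydig signal left in RS.

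Few markers of the other somatic lists were called lower in RS. Of 19 tested peritubular and vessel markers 0 fell and 4 rose, and of 15 macrophage and blood markers 1 fell and 5 rose. The largest rise of the peritubular and vessel list was that of decorin (Dcn), at 2.86, against a list median of 0.05. Over all tested genes 17.1% fell and 17.8% rose. Of these 2 lists, 13 of 19 and 3 of 15 markers lay above the receptor level on every array. At or below it on every array were 2 of 19 and 5 of 15. For markers near or below that level a fall may not be visible, so these counts do not show that it was absent. Spermatogonial markers had 1 of 16 lower and 0 higher. Of 14 pachytene markers 10 fell, with a median of -0.89, and of 19 spermatid markers 16 rose, with a median of 1.09. On KO PS array 1 the spermatid markers lay 0.33 above the PS mean and on KO PS array 2 at -0.22. The part that carry-over of Sertoli or Leydig material has in the fall of the Sertoli genes was not tested.

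**Figure D4:**
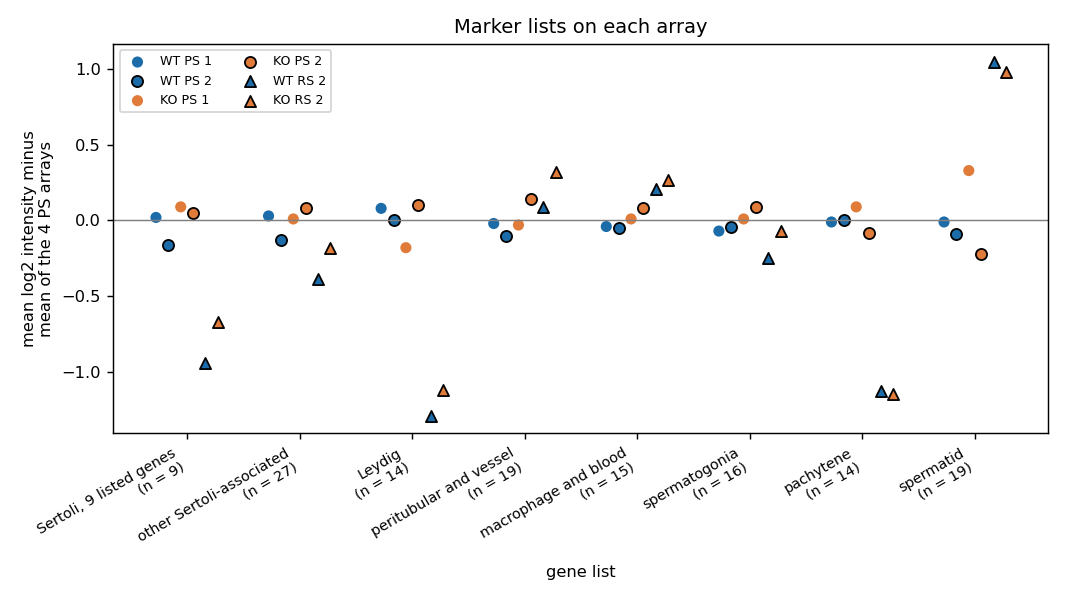
Mean log2 intensity of each marker list (x axis, with the number of tested genes) on each array, relative to the mean of the 4 PS arrays (y axis). Circles are PS, triangles RS, blue WT and orange KO, with a black edge for arrays numbered 2. The 9 Sertoli genes lie at -0.94 in WT RS and -0.67 in KO RS, the Leydig list at -1.29 and -1.12, and the peritubular and vessel list at 0.09 and 0.32. The mean of the last list includes Dcn, which rose by 2.86 in RS, while the median difference of that list was 0.05.

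The 8 genes that fell had similar profiles over the 6 arrays. Their 28 pairs had correlations from 0.882 to 0.997, and Amh correlated with the other 8 at 0.185 to 0.623. The points share 2 cell types and 6 arrays, so most of each value is the step between the cell types. Genes of the closest profile were taken by the smallest root mean square distance of the centred log2 values over the 6 arrays, and distances of the 3 nearest lay between 0.0299 and 0.0858. Nearest to Wt1 were Slc30a2, Ocln and Cacna1i, to Sox9 Kcnk10, Cit and Mybbp1a, and to Clu Hyou1, Pdcd7 and Apba1. Nearest to Gja1 were Rcc2, Kbtbd7 and Pdcd7, to Cldn11 Acly, Mapkbp1 and Elf1, and to Cst9 Mtr, Chd1 and Cdc7. Nearest to Ctsl were Repin1, Tex101 and Arrdc2, and to Inha Irf2bp1, Crip3 and Tmem114. Of these, Ocln was the only one on the Sertoli-associated or other marker lists, and it was at or below the receptor level on all 6 arrays.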

How the data were processed

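Total RNA of 6 cell fractions was hybridised to Affymetrix MoGene 1.0 ST arrays, 1 array per sample. The deposited values are intensity per transcript cluster, linear in scale. The authors used RMA and Affymetrix Expression Console 1.1, as the submitters' processing notes state, and the options are not stated there. Groups came from the sample titles.

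Of 35556 clusters, 21789 list 1 gene symbol, 1621 list several and 12146 are not in the annotation table. By gene identifier, 21698 single-gene clusters matched RefSeq (GRCm38.p6). Log2 of intensity was taken, the cluster of highest mean was kept per gene, and a gene was tested if any array reached log2 6, which left 17925. All 9 Sertoli genes passed this filter.

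Tests used limma 3.58.1 in R 4.3.3 (lmFit and eBayes), with Benjamini-Hochberg adjustment over all tested genes and a threshold of 0.05. A fit with additive terms for both factors (3 residual degrees of freedom) gave the comparisons over both genotypes or both cell types. A fit of 4 groups (2 residual degrees of freedom) gave the others. KO against WT in RS has 1 array each and no test. The number of arrays limits the precision. Scripts were tested on simulated data. Alternatives covered normalization, log offset, dim-gene filter, variance prior, replicate number, cluster choice and leaving out each array.

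The 9 genes, the marker lists and the tests were chosen with earlier results of these data known. Named beside them are the 2 largest called changes in each direction in RS against PS, and the 2 most extreme differences in each direction in KO against WT over both cell types, of the Sertoli-associated and Leydig lists. The other lists are given as counts, except the junction list, of which all called genes are named, F11r, Ocln and Jam3 after their values were seen. Gramd1b of the Leydig list and Dcn of the peritubular and vessel list were also named after their values were seen. The 3 nearest profiles leave out clone names and receptors. No label says that a replicate number pairs arrays, so the numbers were not taken to pair them. Deviations of same-numbered PS arrays correlated at -0.23 across genes.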

Additional observations from a re-analysis of the deposited data

How the results depend on the processing

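Over both genotypes, the count of Sertoli genes that passed in RS against PS was 8 under each of the alternatives that kept all 6 arrays, and 5 to 8 when an array was left out. Within WT it was 7, and 0 to 8 when an array was left out, or 5 with arrays centred on their median and with the replicate number as a block. Within KO it was 5, and 2 to 6 when an array was left out, or 4 with the median centring and with the replicate block. For KO against WT and for the interaction, 0 of the 9 passed under each alternative, the replicate block included. Over all genes, that block moved the count for KO against WT in PS from 0 to 43 and with crossed numbers, a pairing chosen after seeing the data, to 88. Leaving out an array moved it to 2 at most in PS, and over both cell types to 21 without KO PS array 1. Leaving out an array also moved the all-gene counts in RS against PS, over both genotypes from 6255 to between 2786 and 8849, within WT from 3577 to between 1404 and 5511, and within KO from 2786 to between 1646 and 3883. The 9 genes higher in KO RS kept that count under the second quantile normalization and the median centring. The log offset cannot turn the sign of a difference. The mean of clusters leaves these genes as they were, since none has several clusters. The second quantile normalization, the median centring and the log offset keep the order of clusters within an array. The count of 8 genes above the receptor level could therefore not change under them, and its stability is no check.

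Signs turned only for differences that had not passed. In KO against WT in PS without WT PS array 2, Clu was at -0.11 and Wt1 at -0.0154, and without KO PS array 1, Cst9 was at -0.0633 and Amh at 0.11. The highest values with an array left out were 0.38 for Clu, 0.19 for Wt1 and 0.31 for Cst9, and the lowest for Amh was -0.12. Amh was also at 0.00242 with a second quantile normalization, 0.0031 with median centring and 0.00359 without WT PS array 1. Over both cell types Amh ran from -0.00175, without either RS array, to 0.16. In RS against PS, Amh ran from -0.17 to 0.0613, the latter without the WT RS array, and within KO from -0.0542, without KO PS array 1, to 0.18. For the interaction, median centring gave -0.0268 for Clu, -0.0234 for Gja1 and -0.0183 for Cst9, and the second quantile normalization -0.0364 for Gja1. Without WT PS array 1 the interaction was -0.20 for Clu, -0.059 for Gja1 and -0.0495 for Cst9, and without KO PS array 2 it was -0.0343 for Gja1 and -0.13 for Cst9, while the highest values were 0.30 for Clu, 0.16 for Gja1 and 0.25 for Cst9. The cause was not tested. Amh, at or below the receptor level on all arrays, is limited by signal over background.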
